A study of Mus musculus with 9 samples.

Results

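The 10 genes described here were Trp53, Mdm2, Cdkn1a, Gadd45a, Ccng1, Bax, Bbc3, Cdkn2a, Cdkn2b and Mgmt, which cover the p53 response, cell cycle arrest and senescence, and the direct repair of alkylated DNA. They were chosen by name from their known functions, and all 10 were found among the 21498 gene symbols of the expression tables and among the 15278 genes tested. The colon tissue came from 9 male ICR mice, an outbred strain, aged 5 weeks at the start and examined at the end of week 18, with 3 samples in each of 3 groups. Control samples were normal colorectal mucosa from mice that drank distilled water and received no carcinogen, no dextran sulfate sodium and no antibody. AOM/DSS + IgG Ab mice received azoxymethane (AOM), an alkylating carcinogen, once at 10 mg/kg into the peritoneum, then 3 cycles of dextran sulfate sodium (DSS), which injures the colon epithelium, at 2% for 7 days, 1.5% for 5 days and 1.5% for 5 days, with a control IgG. AOM/DSS + anti-S100a9 Ab mice received the same AOM and DSS with a polyclonal antibody against S100a9, an inflammatory protein of myeloid cells. Both antibodies were given into a vein at 1.5 mg/kg every 2 days during the cycles. The labels call both AOM/DSS groups colorectal adenocarcinoma, while the study's text calls the anti-S100a9 tissue colon mucosa, so tissue type and antibody cannot be told apart between the AOM/DSS groups. Each sample was whole tissue and holds several cell types.

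p53, the product of Trp53, is a transcription factor that is stabilized when DNA is damaged and that switches on genes which halt the cell cycle or trigger cell death, among them the gene of its own inhibitor Mdm2. Senescence is a lasting arrest held by inhibitors of cyclin-dependent kinases, of which the products of Cdkn2a and Cdkn2b act upstream of the retinoblastoma protein. Alkylating agents such as AOM place methyl groups on guanine, and the Mgmt protein removes them in a single step that uses up the protein.

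Values are FPKM, fragments per kilobase of transcript scaled to sequencing depth, which is a scale per transcript length. Differences are on the log2(FPKM + 0.1) scale with their standard error (SE), from limma fitted to all genes tested, and a gene is said to have risen or fallen where its Benjamini-Hochberg adjusted p was under 0.05. Genes at 0.1 FPKM or more in at least 3 samples were tested, and all 10 members reached this filter also without the IgG samples. Sample totals ran from 308377 to 408811 FPKM, and the number of reads behind them is unknown. Gapdh was listed at 0.156 to 0.755 FPKM although nearly every cell uses it, beside 796 to 1089 for Actb, so a value of 0 in these tables is only a listed 0, and levels of different genes are given as listed and may not be comparable. Colon epithelium markers summed to 2672 to 5964 FPKM in every sample, and all 12 of them were above 0 in each group. Samples labelled as biological replicates are taken as separate mice. The limma p-values set each group difference against the spread between mice within groups, pooled over the 3 groups and moderated over all genes.

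The upstream sequences of the members that differed between groups, and of Cdkn2b, the nearest of the other members to Cdkn2a, are shown first, because p53 acts on its targets through short repeated half-sites in their DNA. All 10 genes matched RefSeq entries on GRCm38.p6, with 15 annotated starts in all. In the 250 bases upstream of a start, the canonical p53 half-site of 10 bases, searched on both strands, was present before 6 of the 15 member starts (40%), against 7.13% of the 32851 promoters of the table. The members were chosen partly as known p53 genes, so these shares are a description and no test. Binding of p53 to these matches was not measured. These starts belonged to 6 genes, Trp53, Mdm2, Cdkn1a, Gadd45a, Ccng1 and Bax, and the match began at -75 in Trp53, -186 in Mdm2, -40 in Gadd45a, -185 in Ccng1 and -201 in Bax, counted from -1 just before the start. The Gadd45a match lay inside an annotated exon of that gene, which begins before the RefSeq start. Cdkn1a held 2 half-sites, at -73 and -51, upstream of the first of its annotated starts, and none upstream of the second. Cdkn2a, Cdkn2b, Bbc3 and Mgmt held none, which says only that these letters were not in this window. In the sequences below, written 5' to 3' on the gene's own strand, capitals mark p53 half-sites. They come from chr11:69580109-69580358 (plus strand, Trp53), chr17:29090729-29090975 (plus, Cdkn1a), chr7:45466899-45467148 (minus, Bax), chr4:89294654-89294869 and chr4:89282193-89282442 (minus, Cdkn2a) and chr4:89311040-89311282 (minus, Cdkn2b), cut back where an annotated exon of the gene begins earlier.
Trp53: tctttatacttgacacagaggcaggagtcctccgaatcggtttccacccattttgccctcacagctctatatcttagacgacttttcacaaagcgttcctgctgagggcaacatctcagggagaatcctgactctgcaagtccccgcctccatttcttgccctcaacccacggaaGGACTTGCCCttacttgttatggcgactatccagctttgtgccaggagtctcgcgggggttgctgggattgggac
Cdkn1a, upstream start: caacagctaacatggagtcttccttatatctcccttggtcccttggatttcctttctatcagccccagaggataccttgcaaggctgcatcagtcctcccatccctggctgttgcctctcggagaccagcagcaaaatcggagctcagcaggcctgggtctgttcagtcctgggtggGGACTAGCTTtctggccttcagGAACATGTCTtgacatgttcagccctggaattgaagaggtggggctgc
Bax: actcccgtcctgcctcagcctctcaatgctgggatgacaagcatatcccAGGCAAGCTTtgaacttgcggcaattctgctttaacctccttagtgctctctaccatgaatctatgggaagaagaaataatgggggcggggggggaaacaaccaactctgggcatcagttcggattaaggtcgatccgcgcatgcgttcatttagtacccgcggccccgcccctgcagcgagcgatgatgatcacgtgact
Cdkn2a, upstream start: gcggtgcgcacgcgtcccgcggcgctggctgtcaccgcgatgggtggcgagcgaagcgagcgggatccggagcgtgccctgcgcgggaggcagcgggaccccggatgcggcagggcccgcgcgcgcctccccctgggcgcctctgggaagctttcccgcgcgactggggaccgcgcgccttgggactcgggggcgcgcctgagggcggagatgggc
Cdkn2a, downstream start: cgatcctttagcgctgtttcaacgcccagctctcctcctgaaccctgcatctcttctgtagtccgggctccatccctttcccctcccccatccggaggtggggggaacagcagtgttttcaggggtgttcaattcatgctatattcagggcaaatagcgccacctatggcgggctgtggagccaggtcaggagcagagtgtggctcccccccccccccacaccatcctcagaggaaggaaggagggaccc
Cdkn2b: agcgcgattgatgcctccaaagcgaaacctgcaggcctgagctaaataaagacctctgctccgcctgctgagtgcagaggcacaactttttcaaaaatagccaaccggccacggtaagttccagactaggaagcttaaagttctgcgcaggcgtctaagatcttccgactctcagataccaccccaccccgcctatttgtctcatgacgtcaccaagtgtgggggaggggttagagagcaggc

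Cdkn2a has 2 starts because it encodes 2 unrelated proteins: the upstream start gives p19Arf, which restrains Mdm2, and the downstream start gives p16Ink4a, which inhibits cyclin-dependent kinases. The 250 bases before them differed in CpG dinucleotides, with 40 before the upstream and 7 before the downstream start, beside 12 for Cdkn2b and a median of 6 over all promoters. Both transcripts share their later exons, so the single value per gene in these tables cannot tell them apart. On GRCm38 Cdkn2a lies on chromosome 4 from 89274471 to 89294653 and Cdkn2b from 89306299 to 89311039, both on the minus strand, with 11645 bases between them. Trp53 lies on chromosome 11 from 69580359 to 69591873 and Cdkn1a on chromosome 17 from 29090976 to 29100727, both on the plus strand, and Bax on chromosome 7 from 45461697 to 45466898 on the minus strand. In the annotation Bax and Mgmt overlap a further gene on the same strand (Gm45808 and Gm45280) and Cdkn1a and Gadd45a one on the opposite strand, and reads of such partners cannot be told apart here.

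Among the 10 members, 3 were higher in AOM/DSS + IgG Ab than in Control, namely Cdkn2a, Cdkn1a and Bax, and none was lower. Of all genes tested, 11.2% passed in either direction, 8.18% as higher and 3.01% as lower. Compared with the IgG group, 4 members were lower in the anti-S100a9 group, Cdkn2a, Cdkn1a, Bax and Trp53, and none was higher, where 21.1% of all genes passed, 14.4% as lower and 6.72% as higher. In AOM/DSS + anti-S100a9 Ab against Control none of the 10 passed in limma, and 0.0131% of all genes did. At an unadjusted p under 0.05 that last comparison held 3 members, all lower, beside 16% of all genes in either direction and 7.1% as lower. The samples of the 2 groups did not overlap for 6, 5 and 4 of the 10 members in the 3 comparisons, beside 31%, 46.9% and 31% of all genes. Any pair of these comparisons shares a group of samples, so a high value in the IgG group moves the first 2 in opposite directions. In whole tissue, fewer cells of a type and less RNA per cell cannot be told apart. The median difference of the members was 0.29, -0.49 and -0.19 on the log2 scale in the 3 comparisons, beside 0.09, -0.06 and 0.04 over all genes tested.

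**Figure D1:**
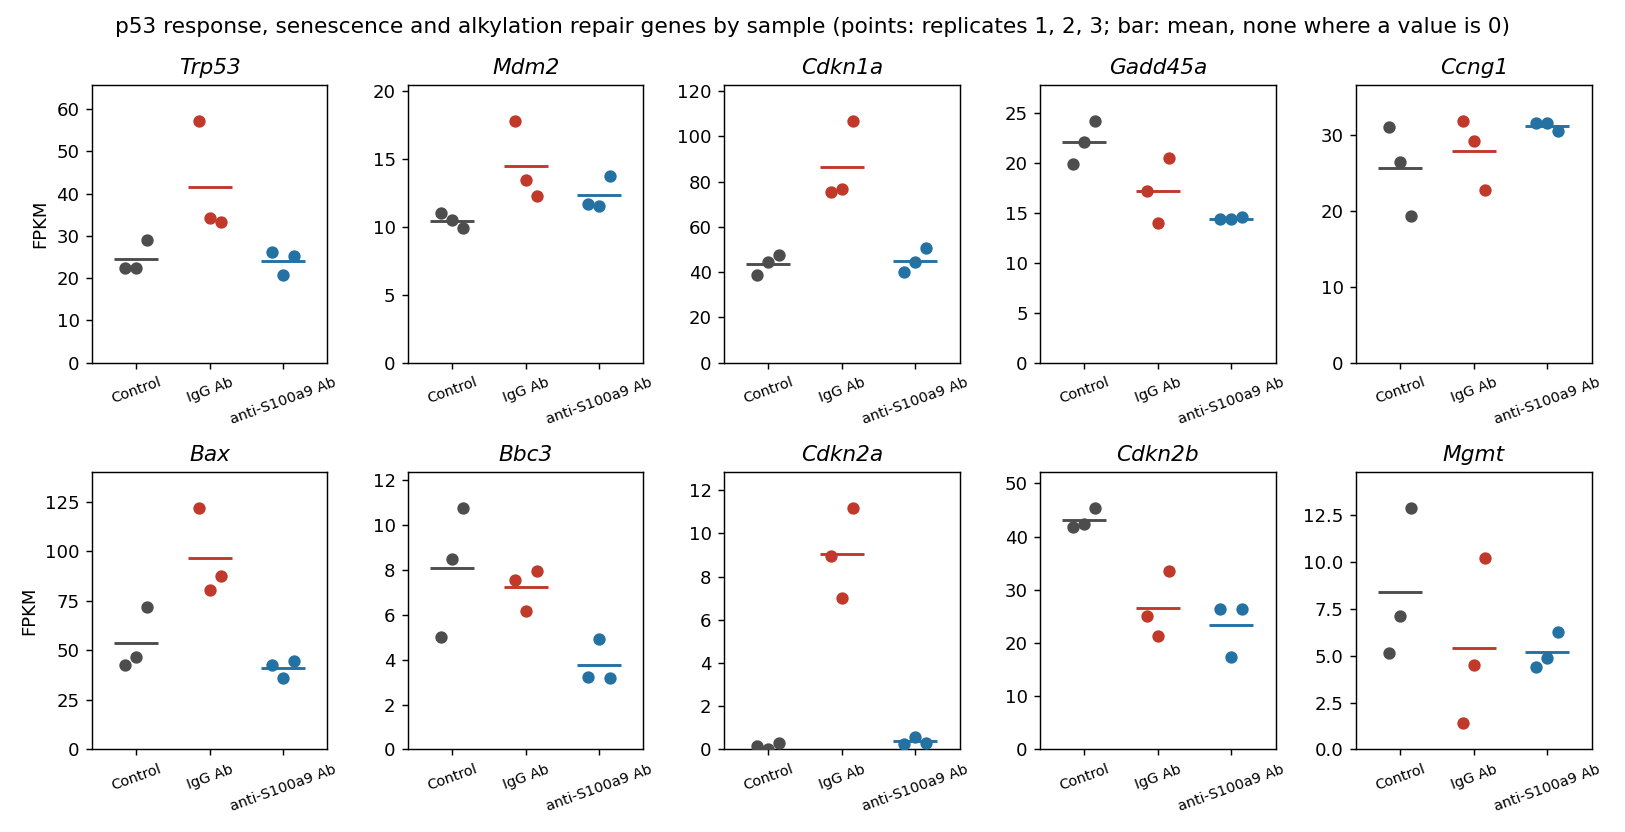
FPKM of the 10 genes in each of the 9 samples, 1 panel per gene with an axis from 0, points in the order of replicates 1, 2 and 3 and a bar at the group mean (no bar where a value is listed at 0). Cdkn2a reached 7.02 to 11.2 FPKM in AOM/DSS + IgG Ab and stayed at or below 0.575 FPKM in the 6 other samples.

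Trp53 itself was listed at 22.3, 22.5 and 29.0 FPKM in Control, at 57.2, 34.2 and 33.4 in AOM/DSS + IgG Ab and at 26.2, 20.8 and 25.3 in AOM/DSS + anti-S100a9 Ab. All 3 IgG samples lay above all 6 others, and the first IgG sample stood well above the other 2 of its group. Against Control the difference was 0.72 on the log2 scale (SE 0.22) and missed the threshold (limma adjusted p = 0.0712). Against IgG the anti-S100a9 group fell by 0.74 (SE 0.22, limma adjusted p = 0.0456). Without IgG replicate 1 the first difference was 0.47 (limma adjusted p = 0.136) and the second -0.49 (limma adjusted p = 0.0838). The second call was lost in 13 of the 20 alternative analyses, among them all 3 that rescaled the samples.

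Mdm2, the ubiquitin ligase that marks p53 for breakdown, was at 11.0, 10.5 and 9.90 FPKM in Control, 17.7, 13.4 and 12.2 in IgG and 11.7, 11.5 and 13.7 in anti-S100a9. The Control samples were below all 6 AOM/DSS samples, and the IgG and anti-S100a9 samples overlapped. Mdm2 differed by 0.45 (SE 0.16) between IgG and Control, which missed the threshold (limma adjusted p = 0.108). Of 14 other regulators of p53, 12 were tested and 0 passed in any comparison by limma. In anti-S100a9 against IgG the samples did not overlap for 6 of the 12, a share near the 46.9% of all genes. Hipk2, a kinase that activates p53, had the largest positive difference there at 1.52 (SE 0.52, unadjusted p = 0.0172, limma adjusted p = 0.0663), with 0.719 to 1.44 FPKM in IgG and 2.64 to 3.06 in anti-S100a9. Mdm4, which binds and inhibits p53, differed by -0.40 between IgG and Control and by 0.60 between anti-S100a9 and IgG, and Ppm1d, a phosphatase that switches the response off, by 0.19 and -0.17, none of them past the threshold. The p53 relative Trp63 was listed at or below 0.0223 FPKM in every sample and was not tested.

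Cdkn1a encodes p21, the cyclin-dependent kinase inhibitor through which p53 arrests cells in G1. It was listed at 38.9, 44.5 and 47.4 FPKM in Control, at 75.4, 76.9 and 107 in IgG and at 40.0, 44.7 and 50.6 in anti-S100a9. Every IgG sample exceeded every other sample, while Control and anti-S100a9 overlapped. Cdkn1a rose by 0.97 (SE 0.17) in IgG against Control, or 1.96-fold (limma adjusted p = 0.0106), and it kept that call in all 20 alternatives. It fell by 0.92 (SE 0.17) in anti-S100a9 against IgG (limma adjusted p = 0.0125), a call lost without anti-S100a9 replicate 1 or replicate 2 at adjusted p up to 0.0525. The difference between anti-S100a9 and Control was 0.05, with a 95% interval from -0.34 to 0.43.

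Gadd45a and Ccng1, further targets of p53, did not follow Cdkn1a. Gadd45a, a stress sensor that slows the cycle and aids repair, ranged from 19.9 to 24.2 FPKM in Control, from 13.9 to 20.5 in IgG and from 14.4 to 14.6 in anti-S100a9. The anti-S100a9 samples were all below Control (-0.60, SE 0.16), with an unadjusted p of 0.00403 and a limma adjusted p of 0.301. Ccng1, which encodes cyclin G1, a part of the feedback onto Mdm2, overlapped between all groups at 19.3 to 31.8 FPKM. Its difference in IgG against Control, 0.14 (SE 0.19), changed sign when samples were scaled by the upper quartile or Control replicate 3 was left out.

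The other GADD45 genes gave another picture. Gadd45g stood at 12.7, 15.8 and 26.5 FPKM in Control, 78.6, 36.4 and 37.9 in IgG and 17.9, 11.2 and 12.6 in anti-S100a9. Gadd45g rose by 1.45 (SE 0.36, limma adjusted p = 0.0366) and fell by 1.80 in anti-S100a9 against IgG (SE 0.36, limma adjusted p = 0.0155). Gadd45b differed by 0.75 between IgG and Control, short of the threshold at a limma adjusted p of 0.0904, and fell by 1.24 in anti-S100a9 (SE 0.26, limma adjusted p = 0.0169).

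Bax and Bbc3 encode proteins of the mitochondrial route to cell death: Bax opens the outer membrane and Bbc3, known as Puma, frees it to do so. Bax was at 42.7, 46.7 and 71.9 FPKM in Control, 122, 80.2 and 87.5 in IgG and 42.5, 35.9 and 44.4 in anti-S100a9. The IgG samples were above all others, and Control replicate 3 was the closest to them. Bax rose by 0.86 (SE 0.23, limma adjusted p = 0.0462) in IgG against Control, but this call was lost in 14 of 20 alternatives, in all 3 rescalings and without IgG replicate 1, where the difference was 0.68 (limma adjusted p = 0.12). The fall in anti-S100a9 against IgG was larger at 1.22 (SE 0.23, limma adjusted p = 0.0132), or 2.33-fold, and was lost only without anti-S100a9 replicate 2 (limma adjusted p = 0.057).

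Bbc3 behaved differently, with 5.04, 8.48 and 10.8 FPKM in Control, 7.56, 6.18 and 7.96 in IgG and 3.24, 4.93 and 3.18 in anti-S100a9. IgG and Control overlapped, and the anti-S100a9 samples were below every other sample. In anti-S100a9 against IgG the difference was -0.94 (SE 0.29), just short of the threshold (limma adjusted p = 0.0514). Against Control it was -1.04 (SE 0.29, unadjusted p = 0.00644, limma adjusted p = 0.301), which made Bbc3 the one member to pass the study's own rule in that comparison, an unadjusted p under 0.05 with a change over 2-fold, met by 3.15% of all genes.

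**Figure D2:**
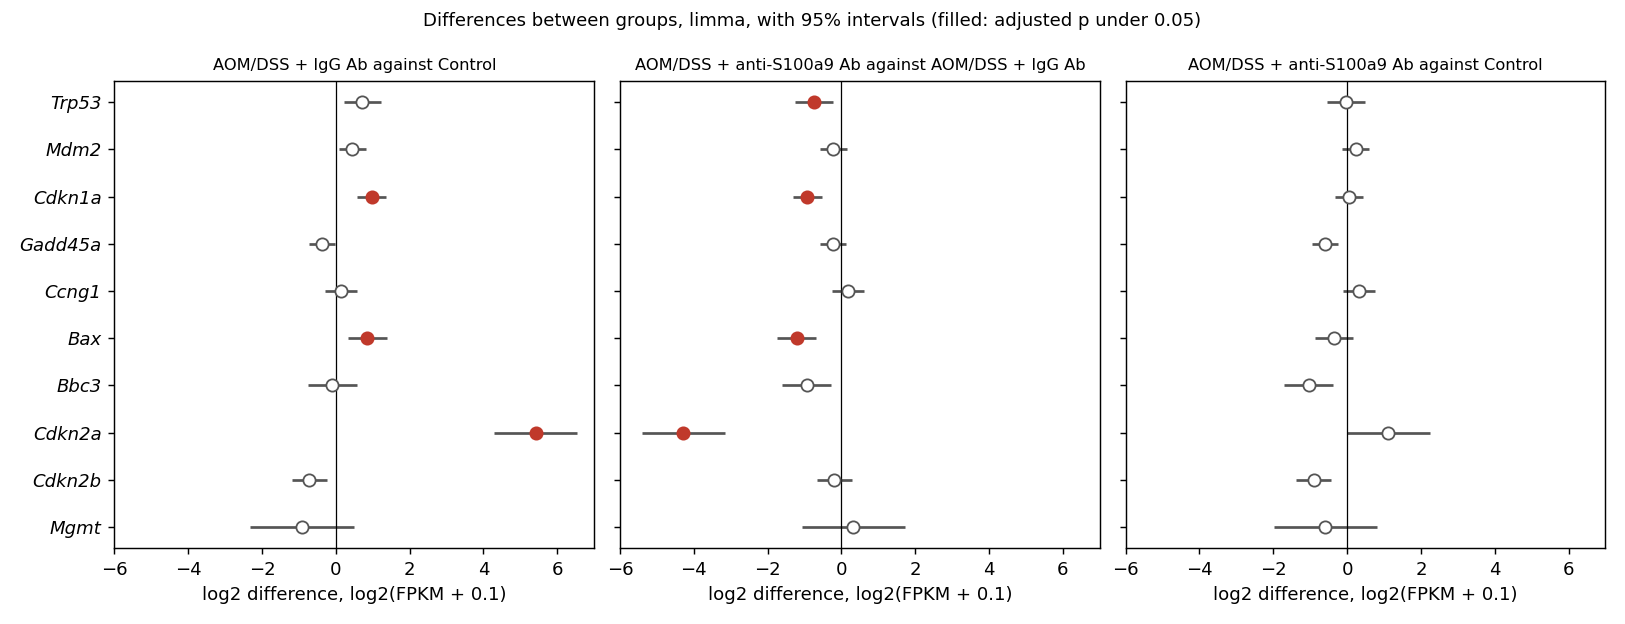
Difference between groups for each of the 10 genes on the log2(FPKM + 0.1) scale, with 95% intervals from limma, in 3 panels for the 3 comparisons; filled points have an adjusted p under 0.05. Cdkn2a lies far outside the range of the other members in the first 2 panels, at 5.41 and -4.29.

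Cdkn2a gave the widest separation of the 10. It was listed at 0.137, 0 and 0.298 FPKM in Control, at 8.93, 7.02 and 11.2 in IgG and at 0.241, 0.575 and 0.321 in anti-S100a9. The IgG samples were far above the rest, while Control and anti-S100a9 overlapped near 0. Cdkn2a rose by 5.41 on the log2(FPKM + 0.1) scale in IgG against Control (SE 0.50, limma adjusted p = 0.000855) and fell by 4.29 in anti-S100a9 against IgG (SE 0.50, limma adjusted p = 0.00312). Both calls were kept in all 20 alternatives, and the pseudocount set the size, with 3.12 and -2.85 the smallest values. Between anti-S100a9 and Control the difference was 1.12 (SE 0.50, limma adjusted p = 0.315), with a 95% interval from -0.01 to 2.25.

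Unlike Cdkn2a, Cdkn2b, whose product p15Ink4b inhibits the same kinases, had a negative difference in IgG against Control. It was at 41.9, 42.3 and 45.4 FPKM in Control, 25.0, 21.3 and 33.5 in IgG and 26.3, 17.4 and 26.3 in anti-S100a9. Every Control sample was above all 6 AOM/DSS samples. The difference was -0.72 in IgG (SE 0.21, limma adjusted p = 0.0593) and -0.91 in anti-S100a9 (SE 0.21, unadjusted p = 0.00197, limma adjusted p = 0.301), each against Control. The first passed under all 3 rescalings of the samples, with adjusted p down to 0.0344. Against IgG the anti-S100a9 group differed by -0.19 (SE 0.21) in Cdkn2b, the same sign as in Cdkn2a. In Control, Cdkn2b at a mean of 43.2 FPKM and Cdkn1a at 43.6 overlapped in level, and in IgG the Cdkn1a samples lay wholly above the Cdkn2b samples.

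Mgmt encodes the methyltransferase that takes methyl groups off O6 of guanine. It was listed at 5.15, 7.11 and 12.9 FPKM in Control, at 1.43, 4.54 and 10.2 in IgG and at 4.40, 4.89 and 6.29 in anti-S100a9. The groups overlapped throughout, and the spread within IgG exceeded the distance between the groups. The difference was -0.92 (SE 0.62) in IgG against Control and 0.32 (SE 0.62) in anti-S100a9 against IgG, with limma adjusted p of 0.353 and 0.724. IgG replicate 1 set much of this: without it the first was -0.19 and the second turned to -0.40. The 95% interval of the first, -2.32 to 0.48, leaves room for a large fall as well as for none.

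By mean listed level in Control, Bax (53.7 FPKM), Cdkn1a (43.6) and Cdkn2b (43.2) led, Ccng1 (25.6), Trp53 (24.6) and Gadd45a (22.1) followed, and Mdm2 (10.4), Mgmt (8.39) and Bbc3 (8.09) came next. Within each of these 3 sets the samples of neighbouring genes overlapped, and between the sets they did not, with Cdkn2a last. In IgG, Cdkn2a stood between Mdm2 and Bbc3, and its samples overlapped those of Bbc3. In anti-S100a9, Cdkn1a and Bax led with overlapping samples and Cdkn2a was last again.

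Among 30 other p53 target genes, 4 rose in IgG against Control and 6 fell in anti-S100a9 against IgG, that is 13.3% and 20% of the list. Those shares stood beside 11.2% and 21.1% of all genes. Phlda3, which restrains the kinase Akt, went from 10.8 to 13.0 FPKM in Control to 25.1 to 33.5 in IgG and 9.33 to 12.8 in anti-S100a9. It rose by 1.27 (SE 0.17, limma adjusted p = 0.00341) and fell by 1.48 (limma adjusted p = 0.00312). The kinase gene Plk2 rose by 1.45 and fell by 1.26, and Psrc1, a microtubule regulator, rose by 1.36 and fell by 1.65. The fourth gene that rose was Gtse1, which binds p53 and is itself cell cycle regulated, and it fell again in anti-S100a9. Sesn2, a stress-induced brake on mTORC1, fell by 0.70 in anti-S100a9, as did Rps27l by 0.69, and neither had passed in IgG. Pmaip1 (Noxa), Fas, Zmat3 and Eda2r gave no call in the same 2 comparisons. Pmaip1 differed by -0.18 and 0.36, Fas by -0.62 and 0.30, Zmat3 by 0.43 and -0.36 and Eda2r by 1.10 and -0.78.

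Of 18 tested BCL2 family and caspase genes, 3 rose and 1 fell in IgG against Control, 22.2% of the list beside 11.2% of all genes. Those that rose were the death-promoting Bmf (1.72) and Bcl2l11 (1.02) and the protective Bcl2l1 (1.06), and the one that fell was the protective Mcl1 (-0.68). In anti-S100a9 against IgG, where 38.9% of the list passed beside 21.1% of all genes, Mcl1 rose by 0.86 and 6 genes fell, Bmf by 1.75, Bok by 1.49, Bcl2l1 by 1.13, Bik by 1.08, Bad by 0.50 and Bak1 by 0.44.

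Among 21 genes of G1 arrest and the retinoblastoma axis, 5 rose in IgG against Control, 23.8% of the list beside 11.2% of all genes. Cdkn1c, which encodes the inhibitor p57, rose by 2.55 (SE 0.70, limma adjusted p = 0.0499), with 83.4, 9.18 and 15.6 FPKM in IgG beside 2.30 to 5.32 in Control, so that its first IgG sample was far above the rest. The others drive the cycle rather than stop it: Myc rose by 1.45 (SE 0.25), Cdk4 by 1.04 (SE 0.22), Ezh2 by 0.99 (SE 0.21) and Ccne1 by 0.82 (SE 0.22). All 5 fell in anti-S100a9 against IgG, by 0.83 to 2.59. Rb1, the retinoblastoma gene, rose there by 1.21, Cdkn1b, the inhibitor p27, by 0.98 and Rbl2 by 0.62, so that 38.1% of the list passed beside 21.1% of all genes. Cdkn2c and Cdkn2d, the remaining genes of the INK4 family, differed by -0.32 and -0.37 in IgG against Control and by -0.21 and -0.01 in anti-S100a9 against IgG, and E2f1 by -0.11 and -0.44, with none past the threshold.

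None of the 12 proliferation genes passed in IgG against Control by limma, although the samples did not overlap for 7 of them, 5 higher and 2 lower in IgG, beside 31% of all genes. Mki67 was at 10.4 to 11.9 FPKM in Control, 8.72 to 10.9 in IgG and 7.82 to 12.3 in anti-S100a9. Ccnb1 had the largest positive difference at 0.64 and Mcm6 the largest negative at -0.55. In anti-S100a9 against IgG, 3 fell, Ccnb1 by 0.87, Cdk1 by 0.86 and Aurka by 0.76. That was 25% of the list, beside 21.1% of all genes in either direction and 14.4% as lower.

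Of 16 senescence-associated genes, 8 rose in IgG against Control and 7 fell in anti-S100a9 against IgG, 50% and 43.8% of the list, beside 11.2% and 21.1% of all genes. The median difference of the list was 1.65 and -1.08, beside 0.09 and -0.06 over all genes. Among the 8 were secreted factors, cytokines and a protease receptor: Mmp10 (6.29), Cxcl1 (4.63), Il1a (2.84), Plaur (2.19), Il1b (2.13), Il6 (1.54) and Igfbp7 (1.24), several of which myeloid cells and fibroblasts also make. Il6 was at or below 0.0553 FPKM outside the IgG group and entered the test only through that group; of the 15 genes that reached the filter without it, 7 rose and 6 fell. Mmp10 went from 0.218 to 0.313 FPKM in Control to 9.69 to 64.3 in IgG and 0.392 to 1.83 in anti-S100a9, where it fell by 4.81. The genes that mark senescence inside the cell were less clear. Lmnb1, whose loss accompanies senescence, differed by 0.37 in IgG against Control and -0.53 in anti-S100a9 against IgG, and Glb1, which encodes lysosomal beta-galactosidase, by 0.27 and -0.86, of which the last alone passed.

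None of the 18 other genes of alkylation and mismatch repair passed in IgG against Control. Apex1, the endonuclease that cuts abasic sites, had the largest positive difference at 0.72 (SE 0.23, limma adjusted p = 0.074), and Msh6 the largest negative at -0.26. In anti-S100a9 against IgG, 3 fell: Alkbh2, an oxidative demethylase, by 1.11, Apex1 by 1.08 and Mpg, the alkyladenine glycosylase, by 0.71, that is 16.7% of the list beside 21.1% of all genes in either direction and 14.4% as lower. Alkbh3 differed by -0.70 and did not pass. The mismatch repair gene Msh6 differed by 0.19. In anti-S100a9 against Control 0 genes passed in any of these lists by limma. Of the 129 genes tested in the 8 lists, 4 had an unadjusted p under 0.05 and over 2-fold change, beside 3.15% of all genes.

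**Figure D3:**
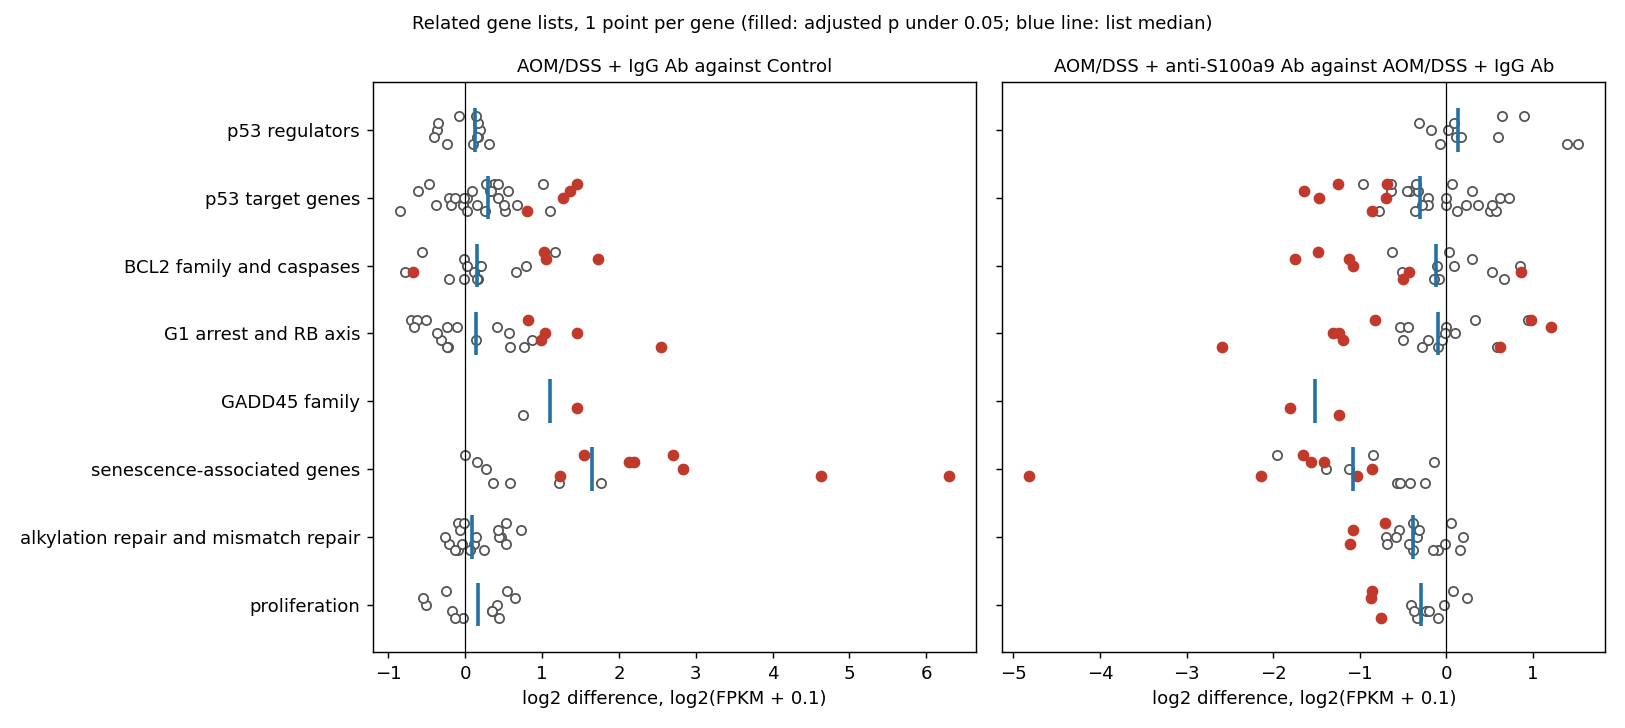
Log2(FPKM + 0.1) difference of every tested gene of the 8 related lists, 1 point per gene, in AOM/DSS + IgG Ab against Control (left) and in the anti-S100a9 against the IgG group (right); filled points have an adjusted p under 0.05 and the blue line is the list's median. The senescence-associated list has the most displaced median of the lists with over 2 genes, at 1.65 and -1.08.

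Altogether 22 of the 129 genes tested in the 8 lists passed in IgG against Control (17.1%, beside 11.2% of all genes) and 36 in anti-S100a9 against IgG (27.9%, beside 21.1%). These counts depended on single samples, as did the counts over all genes, which went from 1710 to 591 without Control replicate 2 in the first comparison and from 3219 to 516 without anti-S100a9 replicate 2 in the second. Of the lists' genes, the first count was 6 without Control replicate 2, 7 without Control replicate 1 and 13 without IgG replicate 3 or anti-S100a9 replicate 2, and 14 without anti-S100a9 replicate 1. The second was 4 without anti-S100a9 replicate 2, 11 without replicate 1, 13 without replicate 3, and 15 and 22 without IgG replicates 3 and 1.

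Markers of some other cell types also differed between the groups. Squamous epithelium markers summed to 3.35 to 6.03 FPKM in Control, 14.9 to 66.1 in IgG and 3.70 to 5.94 in anti-S100a9. Krt14, at 4.63 to 37.1 FPKM, was the largest part of each IgG sum. Krt6a, Ivl, Sprr1b and Dsg3 were listed at 0 in every Control sample, and Ivl and Sprr1b stayed at or below 0.177 FPKM in IgG. Of the 10 tested, 9 had a positive difference in IgG against Control and 1, Krt10, a negative one. Of the 13 listed, 7 reached the filter without the IgG group, and of these 4 rose in IgG and 5 fell in anti-S100a9. Neutrophil markers summed to 90.7 to 120 FPKM in Control, 129 to 614 in IgG and 101 to 179 in anti-S100a9. Ly6g, at 88.8 to 117 FPKM, made up most of the Control sum. Its mean was lowest in IgG, at 72.4 FPKM beside 104 in Control and 124 in anti-S100a9. S100a9 was at 0.370 to 0.859 FPKM in Control, 63.1 to 267 in IgG and 5.54 to 11.6 in anti-S100a9. All 7 markers had a positive difference in anti-S100a9 against Control, 5 without overlap of samples (31% of all genes), and 0 passed. Of the 6 that reached the filter without the IgG group 4 rose in IgG and 3 fell in anti-S100a9. Fibroblast markers summed to 412 to 497, 616 to 2093 and 559 to 734 FPKM, with 4 of 6 rising and 3 falling. In IgG against Control 2 of 12 colon epithelium and 3 of 4 tested adipocyte markers fell, and 0 of the macrophage, T cell, B and plasma cell, endothelium and smooth muscle markers passed. In anti-S100a9 against IgG 2 of 12 colon epithelium, 1 of 6 T cell and 1 of 6 smooth muscle markers rose. Each of these was 16.7% of its list, beside 21.1% of all genes. There 0 of the macrophage, B and plasma cell, endothelium and adipocyte markers passed.

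IgG replicate 1, with the highest squamous sum of 66.1 FPKM, had the lowest colon epithelium sum (2672) and the lowest neutrophil, fibroblast and smooth muscle sums of its group. It also had the highest Trp53, Mdm2 and Bax and the lowest Mgmt of its group. Cdkn2a, Cdkn1a and Bbc3 were instead highest in IgG replicate 3. With 3 samples against 3 the smallest 2-sided exact permutation p is 0.1, and no marker sum could go below it. The part of these cell types in the members' differences was not tested.

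**Figure D4:**
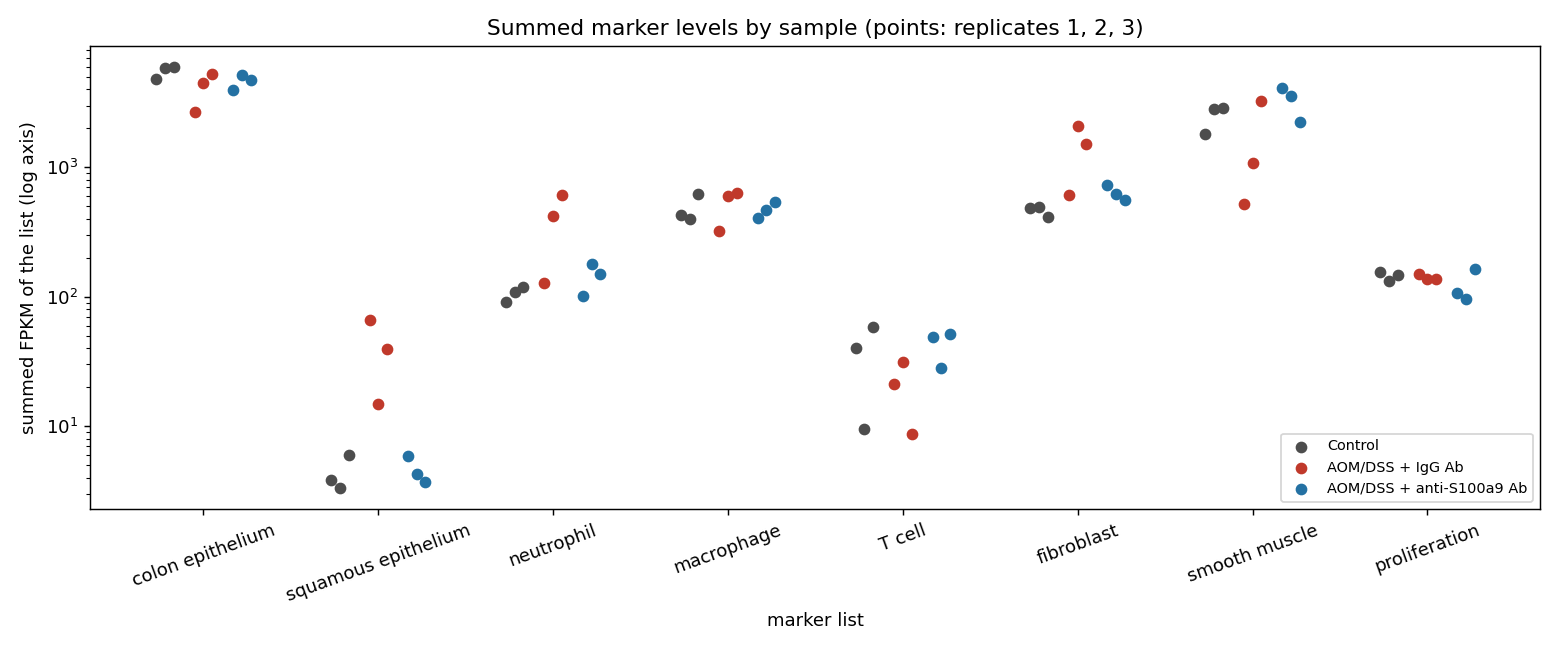
Summed FPKM of 8 marker lists in each of the 9 samples on a log axis, points in the order of replicates 1, 2 and 3 within each group. The squamous sums of the 3 IgG samples, 14.9 to 66.1 FPKM, lie above those of the 6 other samples, while the proliferation sums overlap between Control and IgG.

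The genes whose pattern over the 9 samples lay nearest to that of a member were found by the root mean square difference of their centred log2 values among 12551 genes, as a description. For Cdkn2a they were Cxcl2 (0.52), Gata5 (0.74) and Spp1 (0.76), against a spread of 2.40 for Cdkn2a itself. For Cdkn1a they were Asns (0.12), Amica1 (0.12) and Acot1 (0.12), against 0.48, and for Trp53 Armc10 (0.10), Slc44a2 (0.10) and D11Wsu47e (0.10), against 0.42. For Mgmt they included Hrct1 (0.26) and Tff3 (0.27), against 0.83. Tff3, a goblet cell peptide, averaged 3167 FPKM in Control, 1823 in IgG and 1921 in anti-S100a9.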

How the data were processed

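Processed tables for the 9 samples, 1 per sample, were used as deposited. The authors' notes name TopHat, Cufflinks, HTSeq, DESeq and GRCm38 without versions or roles. The deposited values have the form of FPKM: the unit was read from the values, since no source used here states it, and no whole reads could be recovered from them, so depth and counting error are unknown. Whether counting used strand is not given in the sources used here. The 46 repeated symbols of the 21544 rows were summed. Genes at 0.1 FPKM or more in at least 3 samples were tested with limma 3.58.1 (R 4.3.3) on log2(FPKM + 0.1), fitting all 9 samples with an intensity trend (8.87 moderated degrees of freedom). The authors tested with DESeq, which takes counts. The fit was tested on simulated data. Promoters are from RefSeq, and gene positions from GENCODE M21 on GRCm38.

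The members and lists were chosen with earlier results of these data known. Genes are named by a rule: all members, a set of well known genes of each list, and the largest rise and fall of each list in the first 2 comparisons; other genes are named where a count turns on them, after their values were seen. Values of some genes under this rule are not reported here. Alternatives covered the pseudocount, filter, scaling, trend, robust moderation, groups fitted, replicate block, each sample left out and the study's rule. No pair of samples shared more than 0.00638% of its values above 0.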

Additional observations from a re-analysis of the deposited data

How the results depend on the processing

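Of 600 recomputed values, 548 kept their direction and side of the threshold, 30 lost a call, 11 gained one and 11 turned direction. Members passing numbered 3, 4 and 0 in IgG against Control, anti-S100a9 against IgG and anti-S100a9 against Control. Under the study's rule (unadjusted p under 0.05 and over 2-fold) they were 1, 2 and 1. Related genes passing in the last comparison were then 4 of 129, not 0, beside 3.15% of all genes. With samples left out in turn, members passing ranged from 2 to 3, from 1 to 5 and stayed at 0, and related genes from 6 to 21 (22 with all samples) and from 4 to 45 (36 with all). Fitting only the 2 groups compared left 8 related genes in IgG against Control; the cause was not tested.

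Values that turned direction passed the threshold in no analysis. Upper quartile scaling gave -0.0050 for Ccng1 (IgG against Control), and quantile normalization 0.034 for Trp53 (anti-S100a9 against Control). With each sample left out in turn, Bbc3 ranged from -0.40 to 0.14 and Ccng1 from -0.049 to 0.29 in IgG against Control, Cdkn2b from -0.34 to 0.0093 and Mgmt from -0.40 to 0.97 in anti-S100a9 against IgG, and Trp53 from -0.089 to 0.098 and Cdkn1a from -0.041 to 0.13 in anti-S100a9 against Control.

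Scaling by median of ratios, quantiles or upper quartile moved the median of all genes in IgG against Control from 0.09 to -0.02, -0.03 and -0.04, and the share of calls that were higher from 73.1% to 64.6%, 60.0% and 59.2%; in anti-S100a9 against IgG the share went from 31.9% to 44.5%, 44.9% and 47.1%. Same-numbered samples of different groups had deviations correlating from -0.19 to 0.25, over 0.1 in 5 of 9 pairs. Pairing was to be used only if all 9 exceeded 0.1, so the samples were treated as unpaired. This rule cannot tell whether same-numbered samples shared a day or batch. With a replicate block, members passing were 3, 4 and 0 and related genes 24, 38 and 0.

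Depth is unknown, so precision rests on 3 samples a group.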
